A study of Homo sapiens with 16 samples.

Results

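The 95 potassium channel subunit genes of the table were followed across 16 libraries of Ccd18-Co, fibroblasts grown as a line from the human colon. The members were all gene symbols made of KCN, further letters and a closing number, 95 of 40663 rows, a rule on the symbol alone. A further 26 symbols that begin with KCN, mostly antisense and overlapping RNAs, were set apart. All libraries came from 1 cell line grown in culture wells, in 4 groups of 4. The unstimulated group (replicates 1 to 4) received no cytokine and, per its sample titles, was given DMSO, the solvent, though the columns of its libraries read none in place of DMSO. The other groups received 3 pulses of a cytokine mix, 72 h with cytokines and 96 h of recovery each time. The mix held IL-1B at 0.1 ng/ml, and IL-17A, OSM and TNF were each present at 10 ng/ml. After 1 week of rest these cultures were given, for 5 days, DMSO (the vehicle group, replicates 13 to 16), belinostat at 250 nM (replicates 17 to 20) or GSK-J4 at 10 µM (replicates 21 to 24). Belinostat blocks histone deacetylases, and GSK-J4 blocks the demethylases that act on lysine 27 of histone H3. Concentrations are those of the labels. The study's text gives another concentration of the compounds for most of its assays and, in its methods, a lower one of IL-1B. RNA was taken 2 weeks after the compounds, so all groups were read long after the last exposure. The libraries are separate cultures of a single line, and p-values measure the spread between these cultures only.

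Potassium channels let potassium ions leave the cell along their gradient and so pull the membrane potential towards negative values. Voltage-gated channels open on depolarisation, calcium-activated channels open when calcium rises inside the cell, inward rectifiers and the leak channels with a pair of pore domains hold the resting potential, and auxiliary subunits alter the gating and the traffic of the pore-forming subunits. In smooth muscle and other contractile cells the resting potential governs calcium entry through voltage-gated calcium channels, and fibroblasts carry large calcium-activated potassium currents.

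The libraries held 14.4 to 19.5 M estimated counts, and the 95 genes took 0.0349% to 0.0415% of them. Fibroblast markers (8 of 8 present) summed to 379000 to 521000 normalized counts a library, a normalized count being the count divided by the library's size factor, while KRT20, CD3E and SOX10 were at 0 in every library and EPCAM, CDH5, PECAM1 and PTPRC never exceeded 8 counts. TEK, KIT and ANO1, listed as markers of endothelium and of interstitial cells of Cajal, were measured at means of 1870 or more in every group and made up most of the sums of those lists. CD68, listed for leukocytes, had group means of 257 to 301 and made up most of the sum of its list. VWF, listed for endothelium, had group means of 19.7 to 31.8, and SYP, listed for glia and neuron, of 12.1 to 21.4. Belinostat replicate 17 stood apart from its group. Its fibroblast sum was 379000 against 451000 to 472000 in the other belinostat libraries, and its position on the second principal component was -13 against -1.4 to 0.8. Called differences of the belinostat group are therefore given with and without it. In bulk RNA, fewer cells that express a gene and less RNA per cell cannot be told apart.

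KCNK3 encodes the TASK leak channel, which is open at rest and closes in acid surroundings. In the GENCODE annotation of GRCh38 it lies on chromosome 2 from 26692722 to 26733420 on the plus strand, with 1 annotated transcript of 6191 bases. The 250 bases before its RefSeq start, from GRCh38.p14, are printed because KCNK3 had the largest called differences between the compound groups. They are given 5′ to 3′ on the plus strand, chr2:26692472-26692721, with the only CArG box, the motif known as the binding sequence of serum response factor, in capitals.
KCNK3 promoter: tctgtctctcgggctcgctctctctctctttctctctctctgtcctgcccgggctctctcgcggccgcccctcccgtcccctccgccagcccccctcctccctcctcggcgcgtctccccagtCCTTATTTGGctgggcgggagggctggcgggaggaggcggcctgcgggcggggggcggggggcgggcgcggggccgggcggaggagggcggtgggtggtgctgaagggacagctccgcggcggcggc
The first base of the capitals lies 127 bases before the start. A CArG box stood in 407 of 35116 promoter windows of this length (1.16%) and in 2 of the 109 windows of the 71 KCN genes matched in RefSeq, those of KCNK3 and KCNIP4. The KCNK3 window also held 7 matches of GGGCGG, counted on both strands, a motif found in 42.6% of all windows and in 53 of the 109 KCN windows (48.6%). The motif TGANTCA of AP-1 was not found in these bases; 6.57% of all windows and 9 of the 109 KCN windows held it. GC made up 76.4% of the KCNK3 window, with 27 CpG sites against a median of 11 over all windows, and 17.7% of windows had as many. These matches describe the letters and not the binding of a factor.

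The cells carried a narrow part of the potassium channel repertoire. Of the 95 genes, 14 were at 0 in every library, where 3 counts would be 0.154 counts per M in the deepest and 0.208 in the shallowest library, and a further 23 had a mean below 1 count. A mean of at least 10 counts was reached by 33 genes and a mean of at least 100 by 10. These 10 comprised 4 voltage-gated, 3 leak, 2 auxiliary and 1 calcium-activated gene. No inward rectifier reached 100 counts. The best covered inward rectifier was KCNJ2, a channel known from cardiac and skeletal muscle, at a mean of 64.19 counts. KCNJ12 had a mean of 14.62 and its near copy KCNJ18 was at 0, and reads of these nearly identical genes may have been assigned to either.

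**Figure D1:**
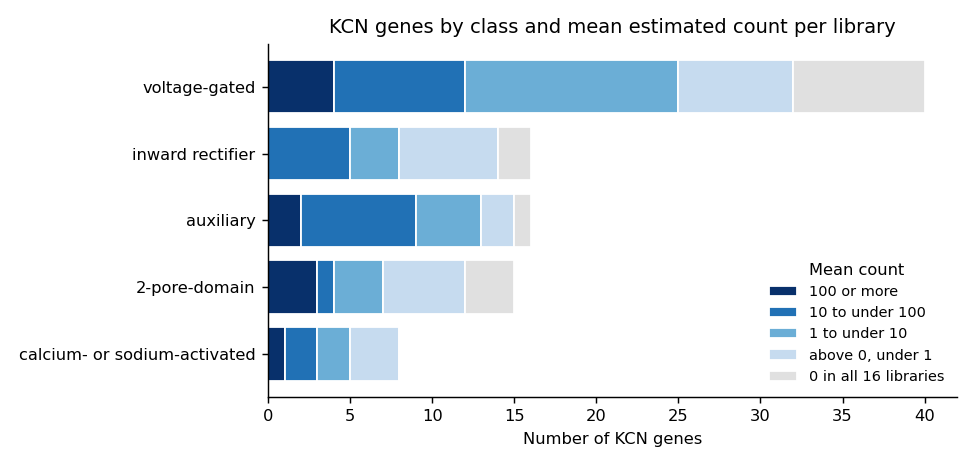
Number of KCN genes in each class (horizontal axis), split by the mean estimated count per library over the 16 libraries. The darkest segments are genes with a mean of 100 or more, 10 in all, and the grey segments are the 14 genes at 0 in every library.

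Per length, 2 genes were far above the rest. On the scale of counts per kb of transcript per M counts, KCND3, the pore of a fast inactivating A-type channel, had a mean level of 18.02 and KCNMA1, the pore of the BK channel opened by calcium and voltage, a mean level of 17.65. Next came KCNE4, a small subunit that damps voltage-gated channels, at 2.97, and KCNK3 at 2.64. The other genes among the first 12 lay between 1.46 and 2.17. These were the cytoplasmic subunit KCNAB2, the BK subunit KCNMB3, the silent subunits KCNF1 and KCNG2, the voltage-gated pores KCNH1, KCNH2 and KCND1, and the leak channel KCNK1. The values depended on the transcript taken for the length: with the longest annotated transcript KCND3 stayed at 18.02, KCNMA1 had 9.15, still the second highest, and KCNMB3 had 0.311 in place of 2.08. Within the vehicle group KCND3 (18.2 ± 2.35, SD, n = 4) and KCNMA1 (17.5 ± 0.665) differed by less than the spread of KCND3. In the GSK-J4 group KCNMA1 (20.3 ± 1.45) stood above KCND3 (16.7 ± 1.18), and the lowest KCNMA1 library (18.4) was above the highest KCND3 library (17.8). In the belinostat group the order was the other way, with KCND3 at 18.3 ± 0.588 and KCNMA1 at 15.1 ± 1.98. These orders rest on the canonical lengths. With the longest transcripts KCNMA1 lay below KCND3 in the overall mean (9.15 against 18.02). KCNK3 ranked behind KCNE4 in the overall mean but moved from a level of 1.45 ± 0.767 in the belinostat group to 5.14 ± 0.288 in the GSK-J4 group, where it was the third most abundant KCN transcript per length.

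**Figure D2:**
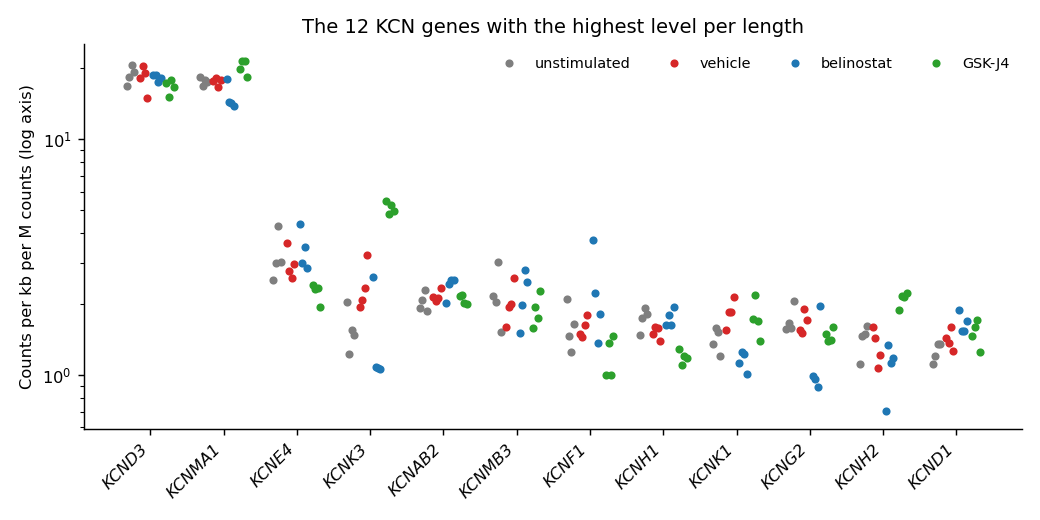
Level of the 12 KCN genes with the highest mean (counts per kb of canonical transcript per M counts, log axis), 1 point per library, coloured by group. KCND3 and KCNMA1 sit between 13.8 and 21.4, the others between 0.702 and 5.47, and the 4 GSK-J4 points of KCNK3 lie above all its other points.

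KCNK3 rose with GSK-J4. Its normalized counts were 222.9, 133.1, 166.0 and 162.1 in the unstimulated libraries and 212.3, 228.1, 254.3 and 341.2 in the vehicle libraries. They were 280.7, 117.2, 115.4 and 114.2 in the belinostat libraries, replicate 17 first, and 599.1, 535.5, 577.1 and 536.6 in the GSK-J4 libraries. Every GSK-J4 library thus lay above every other library, and 3 of the 4 belinostat libraries lay below every other library while replicate 17 lay inside the vehicle range. Against vehicle, KCNK3 was 2.17-fold higher with GSK-J4 (log2 fold change 1.12, SE 0.24, adjusted p = 0.000645 by DESeq2). The call held in all 12 alternatives, with adjusted p up to 0.0301, the value of edgeR's quasi-likelihood test. With belinostat the log2 fold change against vehicle was -0.72 (SE 0.24, adjusted p = 0.0517), just short of the threshold of 0.05. Without belinostat replicate 17 it was -1.16 (adjusted p = 2.57e-09), a call, and with genes of a mean count under 10 left out it was also called, at an adjusted p of 0.0478. The cytokine mix itself left KCNK3 at a log2 fold change of 0.60 (SE 0.24, adjusted p = 0.3), with the groups overlapping and no call in any alternative.

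The smooth muscle marker list (6 of 6 present, DES never above 3 counts) was also highest in the GSK-J4 libraries. Its sum was 37100 to 39300 normalized counts there, 28800 to 33300 in vehicle, 24300 to 36100 in unstimulated and 21800 to 29400 in belinostat libraries. TAGLN gave the most to the sum in every group, and ACTG2 and MYOCD came next. The group mean of MYOCD was above that of ACTG2 in vehicle (8410 against 6400) and belinostat libraries (9290 against 4150). MYOCD, the coactivator among these markers, did not follow, with group means of 7420 in GSK-J4, 8410 in vehicle, 9290 in belinostat and 7170 in unstimulated libraries. The part of these differences in the KCNK3 result was not tested.

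**Figure D3:**
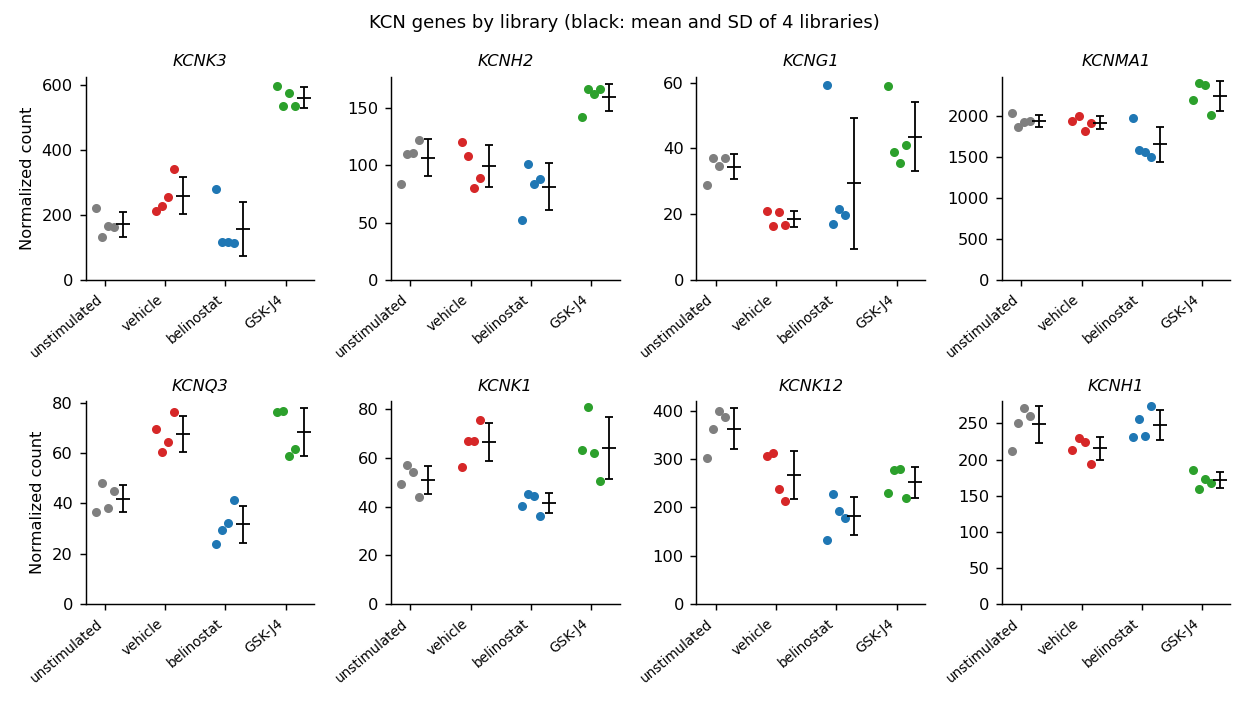
Normalized counts of 8 KCN genes (vertical axes from 0), 1 point per library, with the mean and SD of 4 libraries in black beside each group. All 4 GSK-J4 points of KCNK3 (535.5 to 599.1) lie above the other 12, and 1 belinostat point, replicate 17, lies away from its group in KCNK3 (280.7) and KCNG1 (59.19).

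The first comparison asks what the cytokine pulses left behind in cells that received no compound. Between vehicle and unstimulated cultures 1 of the 47 KCN genes tested was called, and it was higher (2.13%). Over all 16240 genes tested, 1.74% were called, 1.1% higher and 0.634% lower. The median log2 fold change of the 47 was -0.02 beside 0 for all genes, and 14 of them had an unadjusted p under 0.05. The share of all genes under that p was not counted, so no excess among KCN genes can be read from the 14. The called gene was KCNQ3, a subunit of the M-current channel that steadies the potential of excitable cells. Its normalized counts were 36.67, 48.05, 38.17 and 44.91 in unstimulated and 69.48, 60.37, 64.27 and 76.53 in vehicle libraries, so the groups did not overlap. The log2 fold change was 0.69 (SE 0.19, adjusted p = 0.0272). The call was fragile: edgeR did not make it (0.68), nor did DESeq2 without unstimulated replicates 1, 3 or 4 (0.63, 0.65 and 0.73) or without vehicle replicates 13, 15 or 16 (0.68, 0.72 and 0.63). Without vehicle replicate 14 the BK subunit KCNMB4 was called as well, at -0.97.

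Several members of low count had large but uncalled differences after the mix. The silent subunit KCNS3 had 2.895 to 9.01 normalized counts in unstimulated and 9.582 to 19.04 in vehicle libraries (log2 fold change 1.26, SE 0.45, adjusted p = 0.166). KCNN2 and KCNN3, pores of the small calcium-activated channels, were at 1.11 (SE 0.44, adjusted p = 0.27) and 1.30 (SE 0.48, adjusted p = 0.195). KCNG1 went the other way, with 28.95 to 37.1 in unstimulated and 16.29 to 20.94 in vehicle libraries (-0.89, SE 0.35, adjusted p = 0.275). For KCNS3, KCNN2 and KCNG1 the ranges of the groups did not overlap, yet none passed the test across all genes. For KCNN2 the gap was narrow, with the highest unstimulated library at 13.67 and the lowest vehicle library at 13.97. The uncalled KCNIP3, KCNJ12 and KCNJ14 also had ranges without overlap. The share of all genes without overlap was not counted, so no excess among KCN genes can be read from these ranges.

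Belinostat, tested against vehicle, left lower levels of 3 KCN genes and higher levels of 2. Called were 5 of the 35 tested (14.3%), beside 6.26% of all 14209 genes, of which 3.12% were called higher and 3.13% lower. The median of the 35 was 0.17 beside 0 for all genes. Without replicate 17 the calls were 4 of 33 (12.1%), all lower, beside 8.27% of all genes, and they were KCNQ3, KCNK1, KCNK3 and KCNMA1.

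KCNQ3 fell the most of the 3. It had 23.87, 29.31, 32.36 and 41.53 normalized counts in the belinostat libraries, all below the lowest vehicle library (60.37) and within or below the unstimulated range. The log2 fold change was -1.09 (SE 0.21, adjusted p = 1.29e-05), and the call held in every alternative, with -0.97 without replicate 17. The leak channel KCNK1 had 40.1, 45.18, 44.23 and 36.34 with belinostat and 56.16, 67.08, 67.07 and 75.61 with vehicle, again without overlap (-0.69, SE 0.20, adjusted p = 0.0111). The call was kept without replicate 17 (-0.67) and lost without vehicle replicate 16 (-0.62) or belinostat replicate 20 (-0.63).

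KCNK12 encodes a leak channel subunit that is mostly silent when expressed alone. Its normalized counts were 306.5, 312.4, 237.5 and 213.9 with vehicle and 131.7, 228.3, 192.0 and 178.6 with belinostat. The groups overlapped, since belinostat replicate 18 lay above vehicle replicate 16. The log2 fold change was -0.56 (SE 0.16, adjusted p = 0.0147), and the call was lost with edgeR (-0.55), with only the compared groups in the fit (-0.55), without vehicle replicates 13 or 14 (-0.48 and -0.47) and without belinostat replicates 17 or 20 (-0.42 and -0.55). All 4 leak channel genes tested had negative log2 fold changes with belinostat, with a median of -0.62.

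KCNQ5, another M-current subunit, rose from a low count. It had 5.711, 5.749, 9.315 and 3.688 normalized counts with vehicle and 25.78, 14.65, 20.5 and 13.5 with belinostat (log2 fold change 1.61, SE 0.46, adjusted p = 0.0114). The vehicle libraries were the lowest group here, since the unstimulated libraries had 7.008 to 16.41 and the GSK-J4 libraries 7.112 to 23.39. The level after belinostat was thus not particular to it, though KCNQ5 was not called in GSK-J4 against vehicle. The call was lost without vehicle replicate 16 (1.43) and without belinostat replicate 17 (1.41).

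KCNMA1, the second most abundant member, was near the threshold. Its normalized counts were 1940, 2004, 1818 and 1908 with vehicle and 1973, 1584, 1563 and 1502 with belinostat. The 3 libraries other than replicate 17 lay below every vehicle library. The log2 fold change was -0.21 (SE 0.08, adjusted p = 0.107) with replicate 17 and -0.31 (adjusted p = 5.69e-05) without it. The silent subunit KCNG2 was called only without belinostat replicate 20 (-0.82). KCND3, the most abundant member, gave 0.01 with a 95% interval of -0.16 to 0.18.

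GSK-J4, tested against vehicle, left higher levels of 3 KCN genes, KCNK3, KCNH2 and KCNG1, and no lower ones. That was 3 of 30 tested (10%), beside 1.92% of all 13197 genes, 1.1% called higher and 0.818% called lower. The median of the 30 was -0.01 beside 0 for all genes. KCNH2 encodes hERG, the channel that ends the cardiac action potential. Its normalized counts were 120.9, 108.3, 80.11 and 89.44 with vehicle and 142.4, 166.9, 162.6 and 166.7 with GSK-J4, so every GSK-J4 library was above every vehicle library. The log2 fold change was 0.68 (SE 0.18, adjusted p = 0.0125). The call was lost with edgeR (0.68), without vehicle replicates 15 or 16 (0.59 and 0.63) and without GSK-J4 replicates 22, 23 or 24 (0.66, 0.67 and 0.66). KCNG1, a silent subunit that alters other voltage-gated pores, had 20.94, 16.29, 20.49 and 16.6 with vehicle and 58.99, 38.91, 35.56 and 40.88 with GSK-J4. The latter 3 were close to the unstimulated range of 28.95 to 37.1. The log2 fold change was 1.23 (SE 0.35, adjusted p = 0.0294), and the call was lost with edgeR (1.23) and without any 1 of the 8 libraries compared, at values from 1.05 without GSK-J4 replicate 21 to 1.32 without GSK-J4 replicate 23. Of the 3 genes, KCNK3 was the only one called by edgeR.

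Some abundant members shifted with GSK-J4 without passing the test. KCNMA1 had 2191, 2400, 2371 and 2012 normalized counts, all above the highest vehicle library (2004), at a log2 fold change of 0.23 (SE 0.08, adjusted p = 0.139), and it was called with only the compared groups in the fit. KCNH1, the ether-à-go-go channel, had 185.1, 159.7, 173.7 and 167.7, all below the lowest vehicle library (193.6), at -0.33 (SE 0.11, adjusted p = 0.0967). KCNE4 was at -0.39 (SE 0.18, adjusted p = 0.38). KCNQ3 stayed close to vehicle, at 0.02 with a 95% interval of -0.34 to 0.38.

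The compound groups differed from each other in 9 of the 39 KCN genes tested (23.1%), beside 12.2% of all 14717 genes. With belinostat 3 were higher and 6 lower than with GSK-J4, where 6.18% and 6.01% of all genes were. Without replicate 17 the calls were 10 of 36 (27.8%), beside 14.6% of all genes. KCNK3 led, with 156.9 ± 82.5 (SD, n = 4) normalized counts after belinostat and 562.1 ± 31.3 after GSK-J4. Its log2 fold change was -1.84 (SE 0.24, adjusted p = 4.14e-12), and -2.28 without replicate 17. KCNQ3 (-1.11, SE 0.21, adjusted p = 4.56e-06), KCNH2 (-0.98, SE 0.18, adjusted p = 3.56e-06) and KCNMA1 (-0.44, SE 0.08, adjusted p = 2.01e-06) were lower after belinostat without overlap and in every alternative, at -0.98, -0.81 and -0.53 without replicate 17.

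KCNH1 was the reverse. Its belinostat libraries (231.0, 256.4, 231.9 and 274.1) lay above every GSK-J4 library (log2 fold change 0.53, SE 0.11, adjusted p = 2.79e-05), a call kept in every alternative and at 0.57 without replicate 17. The remaining calls were less steady. KCNK1 (-0.63, SE 0.20, adjusted p = 0.0164; -0.62 without replicate 17) was lost with only the compared groups in the fit (-0.63), without belinostat replicate 20 (-0.57) and without GSK-J4 replicate 22 (-0.50). KCNK12 (-0.47, SE 0.16, adjusted p = 0.0384) was lost with edgeR and with only the compared groups (both -0.47), without belinostat replicates 17, 19 or 20 (-0.34, -0.50 and -0.46) and without GSK-J4 replicates 22 or 23 (-0.42 and -0.41).

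KCNE4 and KCNF1 were called higher after belinostat than after GSK-J4, with replicate 17 in the fit. KCNE4 had 221.5, 153.9, 179.1 and 144.3 normalized counts after belinostat and 124.1, 120.8, 119.9 and 98.53 after GSK-J4 (0.60, SE 0.18, adjusted p = 0.00999). KCNF1, a silent subunit, had 148.9, 90.36, 55.02 and 72.68 after belinostat and 40.68, 56.31, 40.64 and 58.7 after GSK-J4 (0.91, SE 0.27, adjusted p = 0.00962). Replicate 17 was the highest library of both. Without it the values were 0.46 (adjusted p = 0.0657) and 0.56 (adjusted p = 0.0918), and neither was called. The KCNE4 call was also lost without GSK-J4 replicate 24 (0.52), and the KCNF1 call without GSK-J4 replicates 21 or 23 (both 0.83). KCNG1 went the other way: its difference of -0.55 (adjusted p = 0.351) became -1.16 (adjusted p = 0.00154) without replicate 17. KCNIP3 was also called without replicate 17 (-0.76) and without GSK-J4 replicate 23 (-0.69). KCNG2 was called without belinostat replicate 20 (-0.65).

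**Figure D4:**
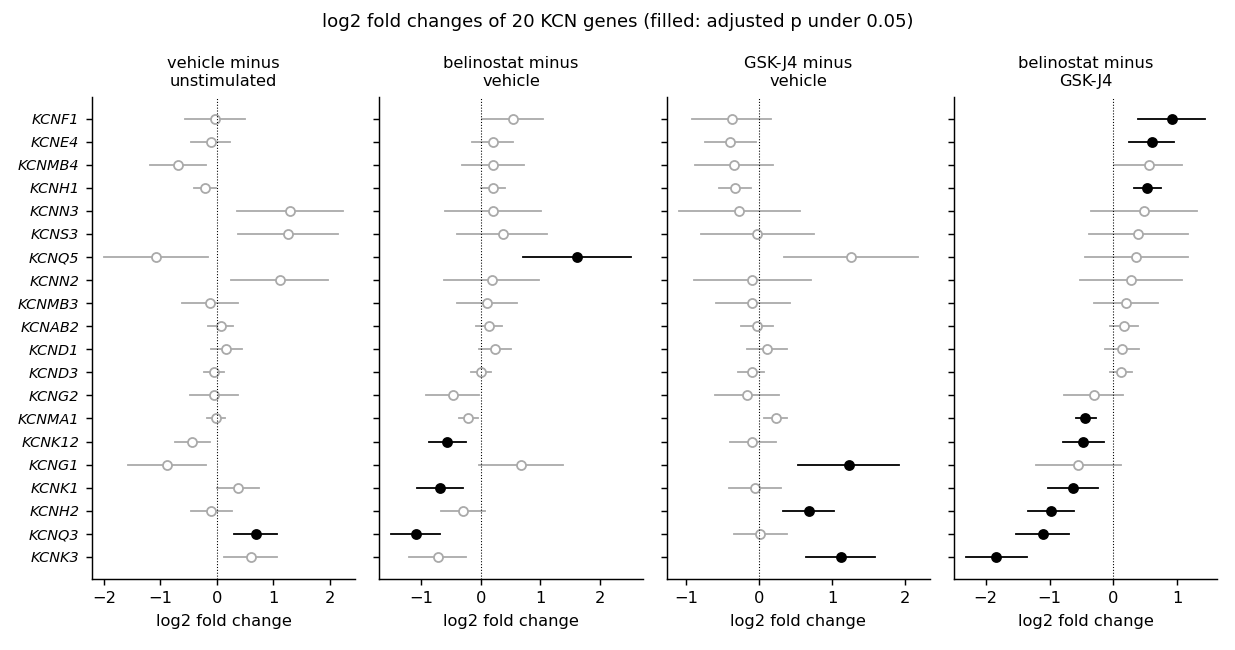
log2 fold change (horizontal axes) with its 95% interval for 20 KCN genes in 4 comparisons, ordered by the difference between the compounds. Filled black points passed an adjusted p of 0.05. KCNK3, at the bottom, is at 1.12 in GSK-J4 minus vehicle and at -1.84 in belinostat minus GSK-J4.

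Against unstimulated cultures, each compound group differs by the pulses and the compound together. These comparisons share libraries with those above and are no separate evidence. With belinostat 7 of 35 KCN genes were called (20%), 5 higher and 2 lower, beside 10.3% of all genes, 5.51% higher and 4.77% lower. Without replicate 17 the calls were 5 of 41 (12.2%), beside 9.69%. KCNK12 had the strongest fall, from 303.0, 362.4, 398.6 and 387.6 normalized counts in the unstimulated libraries to 131.7 to 228.3 after belinostat (log2 fold change -1, SE 0.16, adjusted p = 6.98e-08), a call kept in every alternative, at -0.86 without replicate 17. KCNK3 was not called (-0.12, SE 0.25, adjusted p = 0.855), but without replicate 17 it was lower than in unstimulated cells, at -0.57 (adjusted p = 0.0182).

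The other calls against unstimulated were sensitive to single libraries. KCNS3 (1.63, SE 0.45, adjusted p = 0.00489) was lost without replicate 17 (1.32). KCNN3 (1.51, SE 0.48, adjusted p = 0.0206; 1.52 without replicate 17) was lost with only the compared groups (1.51), without unstimulated replicates 1 or 2 (1.33 and 1.35) and without belinostat replicate 18 (1.43). KCNN2 (1.29, SE 0.44, adjusted p = 0.0341) was lost with edgeR and with only the compared groups (both 1.29), without unstimulated replicates 1, 2 or 3 (1.18, 1.28 and 1.27) and without belinostat replicates 17 or 19 (1.16 and 0.91). All 3 of these genes already had higher means in the vehicle than in the unstimulated libraries. KCND1, a fast inactivating channel, had 155.6, 128.2, 127.3 and 139.1 after belinostat and 92.65 to 113.3 unstimulated (0.41, SE 0.14, adjusted p = 0.0374). It was lost with only the compared groups (0.40), without unstimulated replicates 1 or 2 (0.35 and 0.39) and without belinostat replicates 17, 18 or 20 (0.34, 0.44 and 0.40). KCNMA1 (-0.23, SE 0.08, adjusted p = 0.0478) was lost with edgeR and with only the compared groups, without any 1 unstimulated library (-0.20 to -0.25) and without belinostat replicates 18, 19 or 20 (-0.21, -0.20 and -0.18), while without replicate 17 it was kept at -0.32. KCNG2 was called without belinostat replicate 20 (-0.86).

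With GSK-J4 6 of 48 KCN genes were called against unstimulated (12.5%), 3 higher and 3 lower, beside 5.55% of all 16747 genes, 3.18% higher and 2.37% lower. KCNK3 was 3.29-fold higher (log2 fold change 1.72, SE 0.24, adjusted p = 3.88e-10). KCNQ3 (0.71, SE 0.20, adjusted p = 0.009) was lost without GSK-J4 replicates 21 or 22 (both 0.65), and KCNH2 (0.58, SE 0.18, adjusted p = 0.024) was lost with edgeR (0.57), without unstimulated replicates 1, 2 or 3 (0.48, 0.59 and 0.60) and without GSK-J4 replicates 22, 23 or 24 (0.56, 0.57 and 0.56). The genes called lower were KCNH1, KCNMB4 and KCNK12. KCNH1 went from 212.3 to 271.6 normalized counts to 159.7 to 185.1 (-0.54, SE 0.11, adjusted p = 4.86e-05). KCNMB4, a BK subunit best known from nerve tissue, had 44.39, 70.08, 68.36 and 60.53 unstimulated and 28.48, 25.6, 36.57 and 28.3 after GSK-J4 (-1.03, SE 0.26, adjusted p = 0.00338), and both calls held in every alternative. KCNK12 (-0.53, SE 0.16, adjusted p = 0.0209) was lost without unstimulated replicates 2, 3 or 4 (-0.53, -0.48 and -0.50) and without GSK-J4 replicates 21 or 24 (-0.49 and -0.47). Some genes were called in single alternatives: KCNE4 without unstimulated replicate 1 (-0.60), KCNMA1 without GSK-J4 replicate 24 (0.26) and with only the compared groups (0.21), and KCNIP3 and KCNJ6 by edgeR (0.62 and 0.63).

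Differences between the classes were not tested. Of the 16 auxiliary subunits 9 to 11 were tested in each comparison, and DESeq2 called KCNE4 in belinostat against GSK-J4 (1 of 10) and KCNMB4 in GSK-J4 against unstimulated (1 of 11). In both of these comparisons edgeR called KCNIP3 too (-0.61, adjusted p = 0.0328, and 0.62, adjusted p = 0.0475). None of the inward rectifiers, of which 4 to 8 were tested, was called by DESeq2 in any of the 6 comparisons, in which 1.74% to 12.2% of all genes were called. Of them 0 to 2 had an unadjusted p under 0.05, and edgeR called 1, KCNJ6, in GSK-J4 against unstimulated.

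The genes whose pattern over the 16 libraries was most like that of KCNK3 were found by Pearson's r on the variance-stabilised scale among 11741 genes with a mean of at least 50 normalized counts. They were COL4A5, a basement membrane collagen chain (r = 0.966), PTGS2, the inducible cyclooxygenase (0.949), CDH13, a cadherin anchored in the membrane by lipid (0.944), GNG2, a G protein gamma subunit (0.940), and DDB2, a DNA damage recognition protein (0.940). Without belinostat replicate 17, a choice made after seeing the data, the same genes gave 0.966, 0.963, 0.944, 0.944 and 0.956. All 5 had their highest group mean with GSK-J4, at 859.8 for COL4A5 against 565.7 with vehicle, and at 271.9 for PTGS2 against 142.4. Among KCN genes KCNMA1 was closest (0.832), followed by KCNQ3 (0.650). These values describe 16 libraries that share 4 treatments.

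Genes that work beside potassium channels were taken from fixed lists. Of 17 partner subunits and other potassium-conducting channels, 7 to 10 were tested in each comparison. AMIGO1, a partner of voltage-gated channels, was the only DESeq2 call, 1 of 8 tested (12.5%, beside 12.2% of all genes), higher after belinostat than after GSK-J4 (0.29, SE 0.10, adjusted p = 0.0262). It was lost with only the compared groups (0.29), without belinostat replicates 18, 19 or 20 (0.23, 0.25 and 0.28) and without GSK-J4 replicates 22, 23 or 24 (0.24, 0.30 and 0.28), and kept at 0.38 without replicate 17. In the other 5 comparisons 0 or 1 partner gene had an unadjusted p under 0.05, and edgeR called none. DESeq2 called 1.74% to 10.3% of all genes in them. Of the 26 KCN symbols outside the pattern, which include KCNRG, a regulator gene that is also among the 17 partners, 1 to 6 were tested, and neither DESeq2 nor edgeR called any, with none at an unadjusted p under 0.05. DESeq2 called 1.74% to 12.2% of all genes in the 6 comparisons. With so few symbols tested, the absence of a call says little about them.

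Among 44 genes of membrane potential and calcium entry, sodium channels that depolarise the membrane moved in the opposite direction to KCNK3 and KCNMA1 between the compounds. SCN3A had 4813, 5127, 5139 and 4291 normalized counts with vehicle, 6636, 6086, 6185 and 6076 with belinostat and 3651, 3303, 2741 and 2943 with GSK-J4, with no overlap between the 3 groups. Against vehicle it rose with belinostat (log2 fold change 0.37, SE 0.10, adjusted p = 0.00523) and fell with GSK-J4 (-0.62, SE 0.10, adjusted p = 4.65e-07), and belinostat exceeded GSK-J4 by 0.98 (SE 0.10, adjusted p = 6.93e-21), each in every alternative. Without replicate 17 the belinostat values were 0.34 and 0.95.

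Belinostat against vehicle called 5 of the 34 tested genes of this list, all higher (14.7%, beside 3.12% of all genes called higher), and without replicate 17 the values of 4 of them stayed past the threshold. SCN2A had 46.64, 42.16, 59.61 and 42.42 with vehicle and 79.24, 101.3, 115.4 and 79.95 with belinostat (0.97, SE 0.23, adjusted p = 0.000656; 1.05 without replicate 17), a call kept in every alternative. SCN9A was at 0.64 (SE 0.17, adjusted p = 0.0051; 0.78 without replicate 17), lost without belinostat replicate 18 (0.51). CACNA1G, a low-voltage-activated calcium channel, had 11.42, 17.25, 18.63 and 25.82 with vehicle and 31.51, 39.07, 35.6 and 44.65 with belinostat (1.04, SE 0.29, adjusted p = 0.00731; 1.12 without replicate 17), lost without vehicle replicate 13 (0.87) or belinostat replicate 20 (0.94). CACNA1H, of the same family, was at 0.24 (SE 0.08, adjusted p = 0.0494) and was lost in 9 of 12 alternatives, with edgeR and total-count scaling among them, at 0.22 without replicate 17, 0.25 without belinostat replicate 18, 0.19 without belinostat replicate 20, and 0.22, 0.21 and 0.23 without vehicle replicates 13, 15 and 16.

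GSK-J4 against vehicle called 1 of 33, SCN3A (3.03%, beside 1.92% of all genes). The cytokine mix called none of 38 by DESeq2 or edgeR, beside 1.74% of all genes by DESeq2, with 2 of the 38 at an unadjusted p under 0.05. Between the compounds 8 of 35 were called (22.9%, beside 12.2% of all genes), 7 higher after belinostat. SCN9A (0.83, adjusted p = 3.51e-05), SCN2A (0.82, adjusted p = 0.00389) and CACNA1G (1.01, adjusted p = 0.00654) were among them, and CACNB3, a cytoplasmic calcium channel subunit, was lower (-0.19, adjusted p = 0.00997), each in every alternative. Without replicate 17 they were at 0.97, 0.90, 1.09 and -0.14. Against unstimulated cells belinostat called 8 of 34 (23.5%, beside 10.3%), of which ATP1B1, a sodium pump subunit, went from 301.1, 299.3, 356.0 and 287.0 normalized counts to 533.7, 464.0, 440.2 and 390.4 (0.56, SE 0.10, adjusted p = 5.07e-07; 0.47 without replicate 17, its highest library). CACNA1G (1.60), SCN2A (1.02) and SCN9A (0.71) were again higher and CACNB3 (-0.25) lower, also without replicate 17 (1.68, 1.10, 0.86 and -0.20). GSK-J4 against unstimulated called 3 of 39 (7.69%, beside 5.55%), among them SCN3A lower (-0.63, adjusted p = 3.11e-08) and ATP1B1 higher by 0.29 (adjusted p = 0.0456). ATP1B1 lost this call in 9 of 12 alternatives, among them without unstimulated replicates 1, 2 or 4 (0.28, 0.27 and 0.26) and without any 1 GSK-J4 library (0.28 to 0.30).

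**Figure D5:**
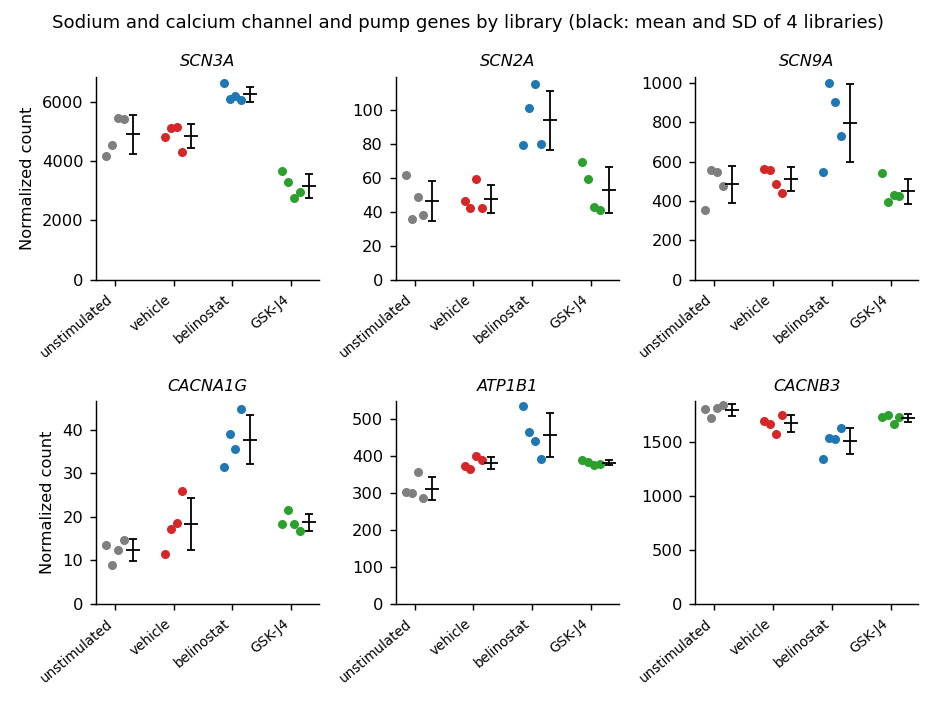
Normalized counts of 6 sodium channel, calcium channel and sodium pump genes named by the rule (vertical axes from 0), 1 point per library, with the mean and SD of 4 libraries in black. The 4 belinostat points of SCN3A (6076 to 6636) lie above all others and the 4 GSK-J4 points (2741 to 3651) below all others.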

How the data were processed

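RNA-seq libraries of 16 Ccd18-Co cultures were analysed. Per the labels and the study's methods, the authors quantified reads with kallisto 0.48.0 (FastQC 0.11.9 and MultiQC 1.14 are also listed) and deposited estimated counts per gene symbol, unscaled. The submitters' notes name hg38, and the annotation and the summing of transcripts are not given in the sources used here. Estimated counts (28% of values had decimals) were rounded. Estimates can split reads between near copies and overlapping genes. Totals were 14.4 to 19.5 M counts a library, and floors from counts cover counting error only. Samples were grouped by their titles. Within groups, libraries correlated across genes with Pearson's r of 0.9954 to 0.9984, which are not independent replicates.

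Genes were tested with DESeq2 1.42.0 (R 4.3.3, Wald test, all 16 libraries in 1 fit, group as the only factor, default filtering), with Benjamini-Hochberg adjustment over all genes tested and a threshold of 0.05, in 6 comparisons. Genes that the default filter left without an adjusted p count as not tested. Alternatives were edgeR 4.0.16's quasi-likelihood test, total-count scaling, a mean count of at least 10, only the groups compared, and leaving out each library. Levels per length are counts per M per kb of the GENCODE canonical transcript, since the effective lengths used by the authors are not known. Coordinates are those of GENCODE on GRCh38, matched by symbol for all 95 members. Promoter windows came from RefSeq (71 of 95 members matched). The scripts were tested on simulated data. Named were KCNK3, every KCN gene called in any comparison, the 12 with the highest level per length, at most 5 called genes of each other list and comparison, and the 5 genes most like KCNK3; genes called only under an alternative, KCNIP4 and the inward rectifiers were named after their values were seen. The members and lists were chosen with earlier results of these data known. Results for some genes are not reported here.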

Additional observations from a re-analysis of the deposited data

Results flagged for a closer look

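Among 84 group values (21 named KCN genes in 4 groups), 5 had a library whose gap to the nearest other library exceeded Dixon's 95% critical value for 4 samples, as a share of the group's range. Chance alone flags about 1 group in 20. In the belinostat group, replicate 17 held KCNK3 at 280.7 normalized counts against 114.2 to 117.2 in the others, KCNG1 at 59.19 against 17.1 to 21.58, and KCNAB2 at 147.0 against 179.5 to 185.6. Replicate 20 of that group held KCNG2 at 64.37 against 29.13 to 32.46. In the GSK-J4 group, replicate 24 held KCNE4 at 98.53 against 119.9 to 124.1. Replicate 17 also had the lowest fibroblast marker sum of all 16 libraries (379000). The cause of these values was not tested.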

How the results depend on the processing

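The calls of KCNK3 with GSK-J4 held in all 12 alternatives. With edgeR the number of KCN genes called was 0 for the cytokine mix (1 by DESeq2) and 1 for GSK-J4 (3 by DESeq2), and with only the groups compared it was 3 for belinostat against unstimulated (7 with all groups in the fit). Leaving out 1 library at a time gave 0 to 2 calls for the cytokine mix, 2 to 4 for belinostat, 1 to 2 for GSK-J4, 7 to 10 for belinostat against GSK-J4, 3 to 6 for belinostat against unstimulated and 4 to 6 for GSK-J4 against unstimulated. The other alternatives stayed within 1.5 times of the main count. No called value turned its direction. Total-count scaling moved the median of all genes by at most 0.019 on the log2 scale. With the longest transcript the levels of KCNMA1, KCNAB2 and KCNMB3 were 9.15, 1.52 and 0.311. The causes of these changes were not tested. No paired analysis was possible because the groups share no replicate numbers. At these depths 37 of the 95 members had means under 1 count, and differences in them were not detectable.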
